A study of Homo sapiens with 12 samples.

Results

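The genes described here are 10 transcriptional targets of the Wnt and beta-catenin pathway, AXIN2, NKD1, LGR5, TBX3, NOTUM, RNF43, ZNRF3, SP5, DKK1 and LEF1, chosen by name from the 58735 genes of the deposited tables. They were followed in 6 groups of 2 biological replicates each, made from 2 human hepatocellular carcinoma lines that the labels call wild-type. Huh7 was grown in Inject-Embed, Mix-Embed and 2D culture, and so was HLF. Both Inject-Embed and Mix-Embed are 3D cultures in Matrigel, a commercial gel of basement-membrane proteins. In Inject-Embed the cell suspension was injected into a set gel at 4000 Huh7 or 2000 HLF cells per well. In Mix-Embed the cells were mixed with liquid gel at 20000 Huh7 or 10000 HLF cells per well and laid over a set layer. The 3D cells were collected on days 6 to 8 and the 2D cells, grown flat on plastic to about 90% confluence, on day 2. Gel, seeding density and time to harvest therefore differ together and cannot be told apart. All groups shared the same serum-containing medium, and the labels name no Wnt ligand, inhibitor or R-spondin added to any of them. Poly-A RNA was sequenced, and each group comes from 1 established line.

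In the canonical Wnt pathway, secreted Wnt proteins bind Frizzled receptors and the LRP co-receptors, and a destruction complex built on AXIN proteins stops degrading beta-catenin. Beta-catenin then enters the nucleus and activates genes together with TCF and LEF proteins. Many of the genes it activates feed back on the pathway, some by blocking the ligand, some by removing the receptor and some by rebuilding the destruction complex. In the liver the pathway is known for setting the gene expression of hepatocytes around the central vein, and activating mutations in it are frequent in hepatocellular carcinoma.

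The 12 libraries held 12325877 to 16041906 counts. Levels below are the deposited FPKM, which are per length and so can be set side by side between genes, and each mean is given ± SD of n = 2. Log2 fold changes come from the counts with TMM scaling in edgeR and are given ± a standard error (SE). A gene is said to rise or fall where its Benjamini-Hochberg adjusted p over all 19342 genes tested was under 0.05. Among 10 hepatocyte markers, all 10 had over 3 counts in each Huh7 group and 2 did in each HLF group. Their summed level was 4230 FPKM in both Huh7 Inject-Embed libraries, 5130 to 5190 FPKM in Mix-Embed and 4320 to 4360 FPKM in 2D. In HLF it was 10.2 to 11.8 FPKM in Inject-Embed, 17.9 to 19.7 FPKM in Mix-Embed and 63.9 to 64.3 FPKM in 2D, with APOB, APOA2 and TTR at 0 counts. The 8 fibroblast or stellate cell markers, 5 to 7 of them over 3 counts in Huh7, summed to 3.92 to 4.67 FPKM in Huh7 Inject-Embed, 7.72 to 8.1 FPKM in Mix-Embed and 12.5 to 12.6 FPKM in 2D, so they moved with culture. In HLF, with 7 or 8 over 3 counts, they summed to 48.5 to 48.7 FPKM, 51.3 to 52.1 FPKM and 55.8 to 56.0 FPKM in the same order. The 5 cholangiocyte markers, 4 of them over 3 counts in Huh7 with KRT7 at 0, summed to 136 to 137 FPKM in Huh7 Inject-Embed, 125 to 131 FPKM in Mix-Embed and 115 to 123 FPKM in 2D. In HLF, with 3 to 5 over 3 counts, they summed to 14.0 to 14.8 FPKM, 14.2 to 15.1 FPKM and 8.35 to 8.49 FPKM, with KRT19 at 0 in 2D. Mitochondrial ribosomal RNA took 0.468% to 0.597% of the counts in the 3D libraries and 0.293% to 0.315% in the 2D libraries. The part of these differences in the results below was not tested, and in bulk RNA fewer cells of a type and less RNA per cell cannot be told apart.

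In Huh7 the target genes were expressed at up to 19.1 FPKM, and 3D culture did not move them all one way. SP5, NKD1, TBX3 and LGR5 rose in both 3D cultures, and DKK1 fell in both. NOTUM fell in Inject-Embed and did not pass in Mix-Embed (the difference between the 3D cultures was itself -0.82 ± 0.48, adjusted p = 0.243), while AXIN2, RNF43 and ZNRF3 passed the test in neither. Of the 9 members tested, 4 rose and 2 fell in Huh7 Inject-Embed against 2D, where 13.2% of all genes tested rose and 16.7% fell. In Huh7 Mix-Embed against 2D, 4 rose and 1 fell, where 11.2% of all genes rose and 10.6% fell. The median log2 fold change of the members was 0.37 in Inject-Embed and 0.32 in Mix-Embed, beside -0.006 and 0.0 over all genes tested. LEF1 had too few counts to be tested. These 2 comparisons share the same 2D libraries.

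**Figure D1:**
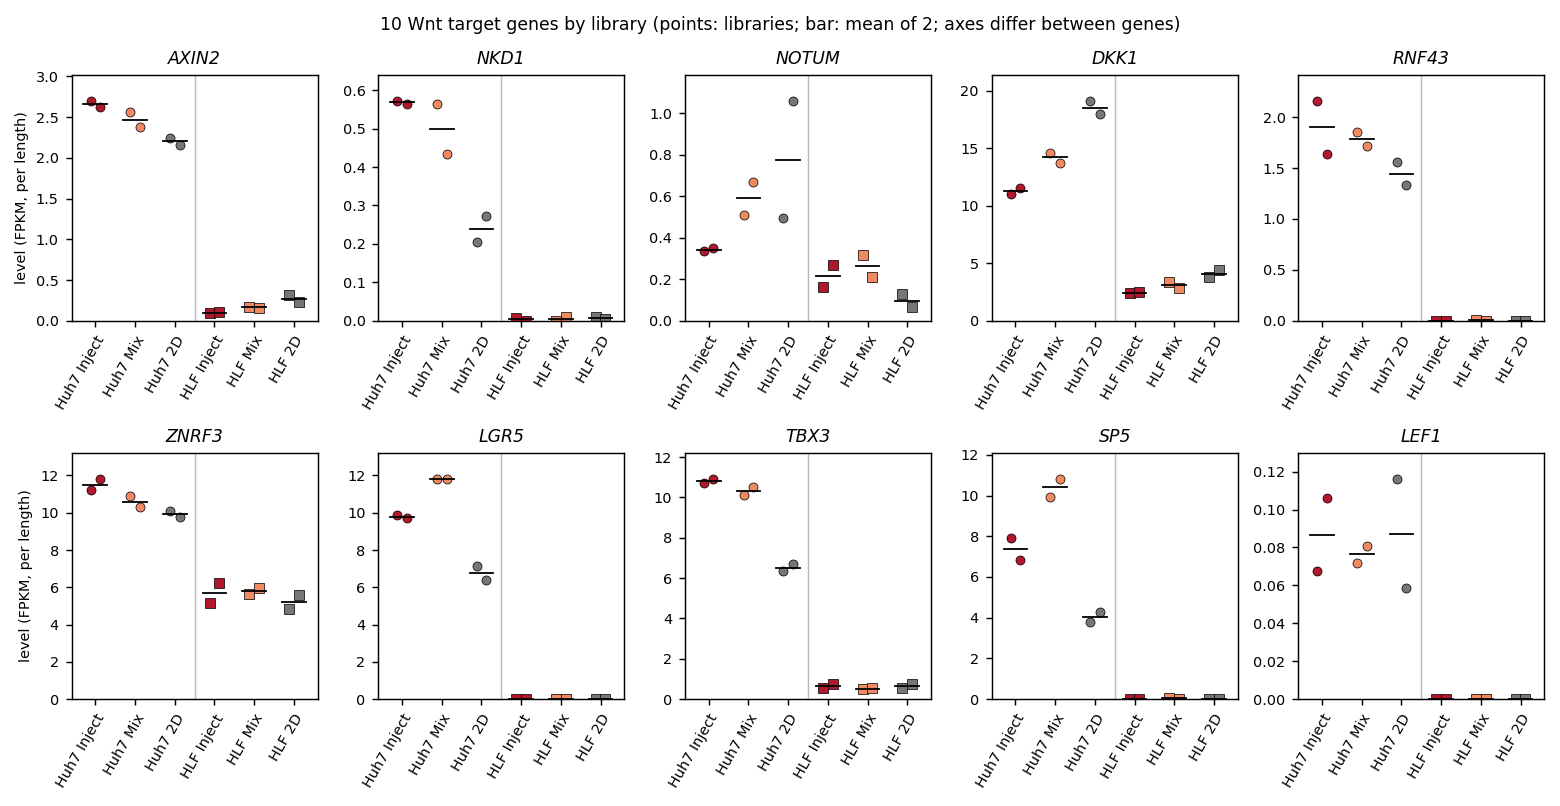
Level of each target gene in FPKM (vertical axis, from 0, a scale of its own for each gene) in every library of the 6 groups. Points are libraries and bars are the mean of 2. In Huh7 SP5, NKD1, TBX3 and LGR5 lie higher in both 3D cultures than in 2D and DKK1 lies lower, and HLF lies below Huh7 for all 10 genes.

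Of the secreted antagonists, DKK1 fell in both 3D cultures of both lines, and NOTUM fell in Huh7 Inject-Embed. DKK1 encodes a secreted protein that binds the LRP co-receptors and blocks Wnt signalling (ENSG00000107984, chromosome 10, 52314296 to 52318042, plus strand). Its levels were 11.0 and 11.5 FPKM in Huh7 Inject-Embed, 14.6 and 13.7 FPKM in Mix-Embed and 19.1 and 18.0 FPKM in 2D. The 3 groups did not overlap, with Inject-Embed lowest and 2D highest. The log2 fold change over 2D was -0.75 ± 0.11 in Inject-Embed (adjusted p = 5.5e-07) and -0.38 ± 0.11 in Mix-Embed (adjusted p = 0.00761). The Mix-Embed call did not hold without Huh7 2D replicate 1 or Huh7 Mix-Embed replicate 2 (-0.34 each, adjusted p = 0.0864 and 0.101). In HLF its levels were 2.39 and 2.46 FPKM in Inject-Embed, 3.39 and 2.86 FPKM in Mix-Embed and 3.76 and 4.43 FPKM in 2D. The groups again did not overlap and lay in the same order. DKK1 fell in HLF Inject-Embed by 0.79 ± 0.16 on the log2 scale (adjusted p = 0.000282) and in Mix-Embed by 0.46 ± 0.16 (adjusted p = 0.0236). The HLF Mix-Embed call did not hold with scaling by library totals alone (adjusted p = 0.0546) or without HLF 2D replicate 2 or HLF Mix-Embed replicate 2 (adjusted p = 0.262 and 0.264).

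NOTUM encodes a secreted carboxylesterase that removes the lipid from Wnt proteins and so inactivates them (ENSG00000185269, chromosome 17, 81952507 to 81961840, minus strand). It was a low gene in every library. Its levels were 0.335 and 0.349 FPKM in Huh7 Inject-Embed (14 and 13 counts), 0.511 and 0.67 FPKM in Mix-Embed (24 and 28 counts) and 0.496 and 1.06 FPKM in 2D (24 and 51 counts). The 2D replicates stood far apart, and the Mix-Embed values lay between them. NOTUM fell in Huh7 Inject-Embed by 1.21 ± 0.46 (adjusted p = 0.0419). Without Huh7 2D replicate 2, the highest library, the value was -0.56 (adjusted p = 0.581), and the call was also lost without either Huh7 Inject-Embed library (adjusted p = 0.171 and 0.133) and in DESeq2 (adjusted p = 0.108). HLF held 0.161 and 0.267 FPKM in Inject-Embed, 0.318 and 0.213 FPKM in Mix-Embed and 0.128 and 0.0651 FPKM in 2D. Both 3D groups stood above 2D on 3 to 13 counts per library, and neither difference passed the test (log2 fold change 1.08 ± 0.67 and 1.36 ± 0.65, adjusted p = 0.31 and 0.119).

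RNF43 and ZNRF3, the membrane ubiquitin ligases that clear Frizzled from the cell surface, did not pass the test in any comparison of cultures, although both did in Huh7 Inject-Embed against 2D under other settings. ZNRF3 (ENSG00000183579, chromosome 22, 28883592 to 29057487, plus strand) was at 11.2 and 11.8 FPKM in Huh7 Inject-Embed, 10.9 and 10.3 FPKM in Mix-Embed and 10.1 and 9.75 FPKM in 2D. HLF held ZNRF3 at 5.17 and 6.21 FPKM in Inject-Embed, 5.65 and 5.98 FPKM in Mix-Embed and 4.82 and 5.59 FPKM in 2D. Against 2D the log2 fold changes were 0.18 ± 0.08 and 0.11 ± 0.08 in Huh7 and 0.09 ± 0.09 and 0.1 ± 0.09 in HLF for Inject-Embed and Mix-Embed in that order, and none passed. The Huh7 Inject-Embed value, 0.0709 by adjusted p, passed with scaling by library totals (0.22, adjusted p = 0.0294) and with only the libraries compared in the fit (0.22, adjusted p = 0.0162). Among the 10 members ZNRF3 was the one with the highest level in each HLF group, and its gap between the lines was the narrowest of the members called. RNF43, its close relative (ENSG00000108375, chromosome 17, 58352500 to 58417595, minus strand), was at 2.16 and 1.64 FPKM in Huh7 Inject-Embed, 1.85 and 1.72 FPKM in Mix-Embed and 1.56 and 1.33 FPKM in 2D. Neither 3D culture passed the test (log2 fold change 0.37 ± 0.18 and 0.32 ± 0.17, adjusted p = 0.117 and 0.214). The Inject-Embed value passed with only the libraries compared (0.4, adjusted p = 0.0406) and without Huh7 Inject-Embed replicate 2 (0.55, adjusted p = 0.0489). In HLF it had 1 count in Mix-Embed replicate 1 and 0 counts in the other 5 libraries.

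LGR5 encodes a receptor for R-spondins, the secreted proteins that block RNF43 and ZNRF3, and is known as a marker of intestinal stem cells (ENSG00000139292, chromosome 12, 71439770 to 71586310, plus strand). It was at 9.87 and 9.7 FPKM in Huh7 Inject-Embed, 11.8 and 11.8 FPKM in Mix-Embed and 7.13 and 6.41 FPKM in 2D. The 3 groups did not overlap, with Mix-Embed highest. LGR5 rose over 2D by 0.5 ± 0.1 in Inject-Embed (adjusted p = 0.000173) and by 0.81 ± 0.1 in Mix-Embed (adjusted p = 3.52e-08). HLF held 0 and 0 counts in Inject-Embed, 2 and 0 in Mix-Embed and 0 and 1 in 2D. LGR5 shares 2129 bases of its span with TSPAN8 on the opposite strand, a tetraspanin gene with 415 and 383 counts in Huh7 Inject-Embed, 484 and 437 in Mix-Embed and 363 and 358 in 2D. The strand setting of the counting is not given in the sources used here, so reads from the shared bases cannot be told apart. In HLF TSPAN8 had 0 to 6 counts per library. Besides TSPAN8, no gene that overlaps a member had more than 52 counts over the 12 libraries.

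The cytoplasmic inhibitors differed from each other. AXIN2, the inducible scaffold of the destruction complex and the most used readout of the pathway, lies on chromosome 17 (ENSG00000168646, 65528563 to 65561647, minus strand). It was at 2.7 and 2.62 FPKM in Huh7 Inject-Embed, 2.57 and 2.38 FPKM in Mix-Embed and 2.25 and 2.16 FPKM in 2D. These groups did not overlap, but they lay within 0.24 ± 0.16 on the log2 scale of 2D in Inject-Embed and 0.18 ± 0.16 in Mix-Embed (adjusted p = 0.296 and 0.496). In HLF it was at 0.093 and 0.103 FPKM in Inject-Embed (7 and 8 counts), 0.17 and 0.16 FPKM in Mix-Embed (12 and 13 counts) and 0.32 and 0.226 FPKM in 2D (26 and 18 counts). The 3 HLF groups lay in the opposite order, with 2D highest. Inject-Embed and Mix-Embed did not differ by the test in either line (0.06 ± 0.16 in Huh7 and -0.72 ± 0.46 in HLF, adjusted p = 0.875 and 0.414). AXIN2 fell in HLF Inject-Embed by 1.51 ± 0.4 (adjusted p = 0.00569), and the Mix-Embed value of -0.78 ± 0.36 did not pass (adjusted p = 0.101). The Inject-Embed call was lost without HLF 2D replicate 1 (-1.23) and without HLF Inject-Embed replicate 1 (-1.43). With all libraries kept it was lost in limma on log2(FPKM + 1) (adjusted p = 0.0756). NKD1, which binds Dishevelled and damps the signal (ENSG00000140807, chromosome 16, 50548330 to 50649249, plus strand), was at 0.572 and 0.563 FPKM in Huh7 Inject-Embed, 0.564 and 0.435 FPKM in Mix-Embed and 0.204 and 0.273 FPKM in 2D. Every 3D library stood above both 2D libraries. NKD1 rose by 1.22 ± 0.25 in Inject-Embed (adjusted p = 0.000128) and by 1.08 ± 0.25 in Mix-Embed (adjusted p = 0.000891), the second value missing the threshold without Huh7 Mix-Embed replicate 1 (adjusted p = 0.0529). HLF held 0 to 3 counts of NKD1 per library.

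Of the transcription factors, TBX3, a T-box repressor known as a beta-catenin target in liver tumours (ENSG00000135111, chromosome 12, 114670254 to 114684164, minus strand), was at 10.7 and 10.9 FPKM in Huh7 Inject-Embed, 10.1 and 10.5 FPKM in Mix-Embed and 6.35 and 6.68 FPKM in 2D. Both 3D groups stood well above 2D and close to each other. The increase was 0.69 ± 0.09 in Inject-Embed (adjusted p = 1.08e-07) and 0.67 ± 0.09 in Mix-Embed (adjusted p = 3.39e-07). In HLF it was at 0.56 and 0.744 FPKM in Inject-Embed, 0.485 and 0.541 FPKM in Mix-Embed and 0.551 and 0.738 FPKM in 2D. Neither HLF 3D culture differed from 2D by the test (-0.02 ± 0.2 and -0.38 ± 0.21, adjusted p = 0.993 and 0.19). SP5, a zinc-finger factor of the Sp family that acts downstream of beta-catenin (ENSG00000204335, chromosome 2, 170715351 to 170718078, plus strand), was at 7.93 and 6.81 FPKM in Huh7 Inject-Embed, 9.95 and 10.8 FPKM in Mix-Embed and 3.78 and 4.28 FPKM in 2D. No 2 of these groups overlapped. SP5 rose by 0.84 ± 0.17 in Inject-Embed (adjusted p = 0.000178) and by 1.37 ± 0.17 in Mix-Embed (adjusted p = 2.35e-08), the widest rise of a member in that comparison. HLF held 2 counts of SP5 in Mix-Embed replicate 1 and 0 in the other 5 libraries. LEF1, the nuclear partner of beta-catenin that gives the TCF and LEF family part of its name (ENSG00000138795, chromosome 4, 108047545 to 108168956, minus strand), was near the floor of detection. It had 5 and 7 counts in Huh7 Inject-Embed, 6 and 6 in Mix-Embed, 10 and 5 in 2D, and 0 counts in every HLF library.

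**Figure D2:**
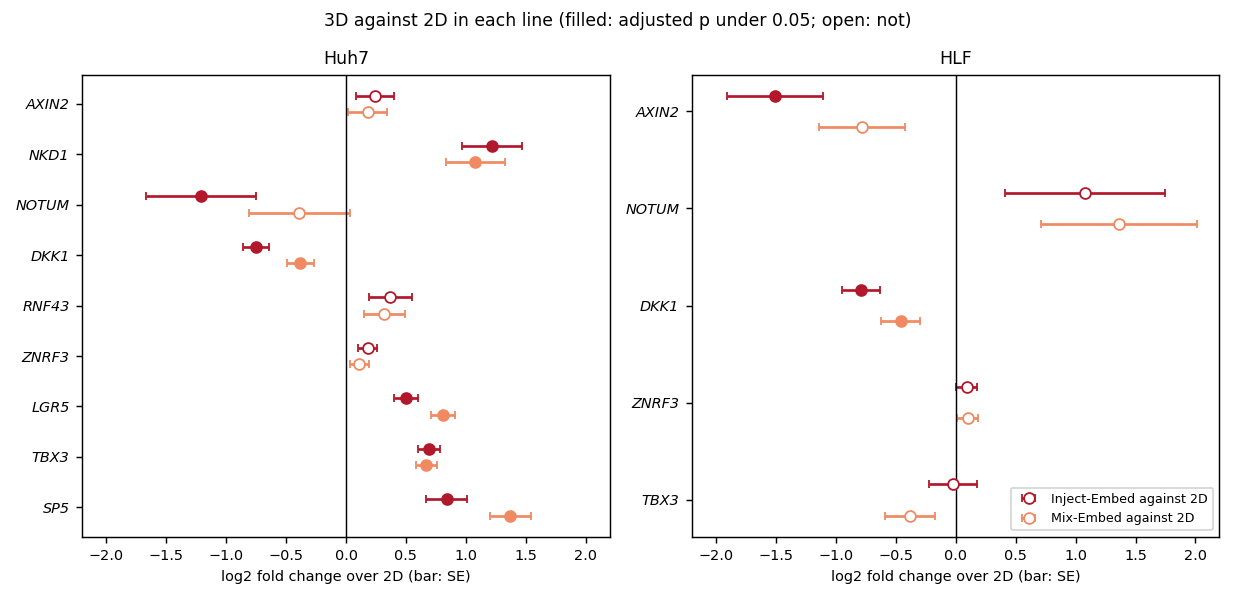
Log2 fold change over 2D (horizontal axis, bars are SE) of the members with more than 3 counts in every group of the line, in Huh7 on the left and HLF on the right, for Inject-Embed and Mix-Embed. Filled points had an adjusted p under 0.05. In Huh7 NKD1, LGR5, TBX3 and SP5 are filled to the right of 0 and DKK1 to the left in both cultures, while in HLF the filled points are AXIN2 in Inject-Embed and DKK1 in both.

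SP5 and DKK1 moved in opposite directions in Huh7 3D culture, and their promoters are shown because both hold the core word that TCF and LEF proteins recognise. Promoters were matched by symbol in the RefSeq table for GRCh38.p14, which gave an entry for 4 of the 10 members, SP5, DKK1, LEF1 and RNF43. The 250 bases before each start site were searched on both strands for the word CTTTGAA and its variants CTTTGAT and also CTTTGTA and also CTTTGTT, which do not overlap one another in these windows. Capitals mark each match, and a match on the minus strand reads as the reverse complement.
SP5, chr2:170715087-170715336, plus strand: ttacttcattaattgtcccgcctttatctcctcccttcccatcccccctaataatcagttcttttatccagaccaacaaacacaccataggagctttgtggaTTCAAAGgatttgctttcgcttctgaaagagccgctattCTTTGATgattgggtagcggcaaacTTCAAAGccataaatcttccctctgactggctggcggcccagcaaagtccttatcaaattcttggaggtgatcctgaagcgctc
DKK1, chr10:52314031-52314280, plus strand: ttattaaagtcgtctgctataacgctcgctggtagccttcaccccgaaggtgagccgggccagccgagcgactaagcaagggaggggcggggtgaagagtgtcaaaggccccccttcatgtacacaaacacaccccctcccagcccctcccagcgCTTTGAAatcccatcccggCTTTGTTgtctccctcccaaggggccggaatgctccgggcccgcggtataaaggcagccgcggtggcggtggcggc
The SP5 window held 3 matches, CTTTGAA on the minus strand 148 to 142 bases before the start, CTTTGAT on the plus strand 109 to 103 bases before it, and CTTTGAA on the minus strand 84 to 78 bases before it. The DKK1 window held 2 matches on the plus strand, CTTTGAA 95 to 89 bases and CTTTGTT 76 to 70 bases before the start. Neither the LEF1 window nor either of the 2 RNF43 windows held a match. Of all 35116 promoters of this length in the table, 12% held at least 1 of the words, and 43 (0.122%) held 3 or more matches. CTTTGAA alone was in 3.8%, CTTTGAT in 2.26%, CTTTGTA in 2.35% and CTTTGTT in 4.5%. Both windows held words, while SP5 rose and DKK1 fell. A match describes the letters of the window and does not show that a factor binds there.

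The 3D cultures were also set against each other. In Huh7 Inject-Embed against Mix-Embed, no member rose and 3 fell, where 9.55% of all genes tested rose and 13.4% fell. LGR5 fell by 0.31 ± 0.1 (adjusted p = 0.0182), SP5 fell by 0.53 ± 0.16 (adjusted p = 0.0114) and DKK1 fell by 0.37 ± 0.11 (adjusted p = 0.0126). By this fit LGR5 and SP5 rose less over 2D in Inject-Embed than in Mix-Embed, and DKK1 fell further. SP5 lost its call in DESeq2 (adjusted p = 0.0547) and in limma on log2(FPKM + 0.1) (adjusted p = 0.204). LGR5 lost its call in the same limma fit (adjusted p = 0.323) and with any of the 4 libraries left out. Exactly 1 of the 3 was called when any of the 4 libraries was left out: SP5 without replicate 1 of Inject-Embed or of Mix-Embed, and DKK1 without replicate 2 of either. With scaling by library totals, 52.9% of all genes called in this comparison were higher, against 41.7% with TMM scaling. In HLF Inject-Embed against Mix-Embed, 0 of the 5 members with more than 3 counts in each HLF group passed edgeR's test, DESeq2's test or limma's, and 0 had an unadjusted p under 0.05 in edgeR. The shares of all genes that rose and fell there were 3.56% and 4.71%.

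In HLF 5 of the members had more than 3 counts in each group, and the calls against 2D were all decreases. In Inject-Embed against 2D, 0 of the 5 rose and 2 fell, AXIN2 and DKK1, where 9.09% of all genes rose and 8.86% fell. In Mix-Embed against 2D, 0 rose and 1 fell, DKK1, where 14.4% of all genes rose and 14.6% fell. For those 5 members, the median log2 fold change was -0.02 in Inject-Embed and -0.38 in Mix-Embed, beside 0.0 and 0.004 over all genes. With scaling by library totals, 63.3% of the genes called in Inject-Embed and 62.4% of those in Mix-Embed were higher, against 50.6% and 49.8% with TMM scaling.

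AXIN2, TBX3, DKK1 and ZNRF3 were higher in Huh7 than in HLF in all 3 cultures. In 2D, AXIN2 stood at 2.21 ± 0.07 FPKM in Huh7 and 0.273 ± 0.067 FPKM in HLF (3.16 ± 0.22 on the log2 scale, adjusted p = 6.08e-17). TBX3 stood at 6.51 ± 0.23 FPKM in Huh7 and 0.644 ± 0.13 FPKM in HLF (3.49 ± 0.14, adjusted p = 3.71e-26). DKK1 stood at 18.5 ± 0.83 FPKM in Huh7 and 4.09 ± 0.47 FPKM in HLF (2.34 ± 0.12, adjusted p = 3.16e-21). ZNRF3 stood at 9.91 ± 0.23 FPKM in Huh7 and 5.21 ± 0.54 FPKM in HLF (1.08 ± 0.08, adjusted p = 7.93e-16). In the 3 cultures the log2 fold change over HLF ran from 3.16 to 4.9 for AXIN2, which had 7 to 26 counts per HLF library, and from 1.08 to 1.18 for ZNRF3, the narrowest of the 4. NOTUM was higher in Huh7 2D (3.12 ± 0.55, adjusted p = 2.61e-06) and Mix-Embed (1.38 ± 0.49, adjusted p = 0.0107), the second not without Huh7 Mix-Embed replicate 2 or HLF Mix-Embed replicate 2 (adjusted p = 0.0829 and 0.117). In Inject-Embed it was at 0.342 ± 0.01 FPKM in Huh7 and 0.214 ± 0.075 FPKM in HLF, which did not differ by the test (0.83 ± 0.55, adjusted p = 0.17).

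Of the 9 tested members, 9 were higher in Huh7 in 2D, 8 in Inject-Embed and 9 in Mix-Embed, and none was lower. Over all genes tested 38.1%, 37.6% and 37.9% were higher in Huh7 and 39.2%, 39.5% and 39.1% were lower, in the same order of cultures. LGR5, SP5, RNF43 and NKD1 had at most 4 counts over any HLF group and passed the filter on low counts through Huh7 alone. They therefore had to differ, and their calls carry no weight in these counts. What remains is AXIN2, TBX3, DKK1 and ZNRF3, higher in Huh7 in all 3 cultures, and NOTUM, higher in 2D and Mix-Embed. For genes with so few HLF counts the ratio of scaled counts is given in place of a fitted value. LGR5 had 1139 counts in Huh7 2D and 1 in HLF 2D, a ratio of 1220 with a 95% counting interval of 219 to 48300, which covers counting error only. SP5 and RNF43 had no counts in HLF 2D and were at least 95.1-fold and 124-fold higher in Huh7 2D, with the group's total set at a floor of 3 counts. In Inject-Embed LGR5, SP5 and RNF43 were at least 563-fold, 167-fold and 157-fold higher in Huh7 on the same floor. LEF1, with 15 counts in Huh7 2D and 0 in HLF 2D, was at least 5.36-fold higher in Huh7. With scaling by library totals the median of all genes in the line comparison lay at -0.18 in 2D, -0.199 in Inject-Embed and -0.252 in Mix-Embed, beside -0.024, -0.035 and -0.025 with TMM scaling, and no member called changed direction.

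The difference of the culture effect between the lines was tested in the same model, as the log2 fold change in Huh7 minus that in HLF. LGR5, SP5, RNF43 and NKD1 hold at most 4 counts over any HLF group and have no usable HLF response, which leaves 5 members. For Inject-Embed against 2D, 3 of these 5 passed, where 24.8% of all genes did. AXIN2 had a difference of 1.74 ± 0.44 (adjusted p = 0.00195), TBX3 of 0.71 ± 0.22 (adjusted p = 0.0142) and NOTUM of -2.29 ± 0.82 (adjusted p = 0.0336). For Mix-Embed against 2D, TBX3 alone of the 5 passed, where 20.4% of all genes did, with a difference of 1.06 ± 0.23 (adjusted p = 0.000615). DKK1 fell in both lines, and its difference was 0.04 ± 0.2 for Inject-Embed and 0.08 ± 0.19 for Mix-Embed (adjusted p = 0.974 and 0.881). For Inject-Embed against Mix-Embed, 0 of the 5 passed in edgeR, DESeq2 or limma, and 0 had an unadjusted p under 0.05 in edgeR, where 10.6% of all genes passed. The share of higher values among all genes called there was 61.2% with scaling by library totals and 43.7% with TMM scaling, and for Mix-Embed against 2D it was 37.1% and 49.9%. AXIN2 for Inject-Embed and TBX3 for Mix-Embed kept their calls whichever of the 8 libraries compared was left out. TBX3 for Inject-Embed lost its call without HLF 2D replicate 2 or HLF Inject-Embed replicate 1 (adjusted p = 0.203 and 0.124). NOTUM lost it without HLF 2D replicate 2, HLF Inject-Embed replicate 2, Huh7 2D replicate 2 or either Huh7 Inject-Embed library (adjusted p = 0.0588 to 0.214), in DESeq2 (adjusted p = 0.0583) and in limma on log2(FPKM + 1) (adjusted p = 0.0648).

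**Figure D3:**
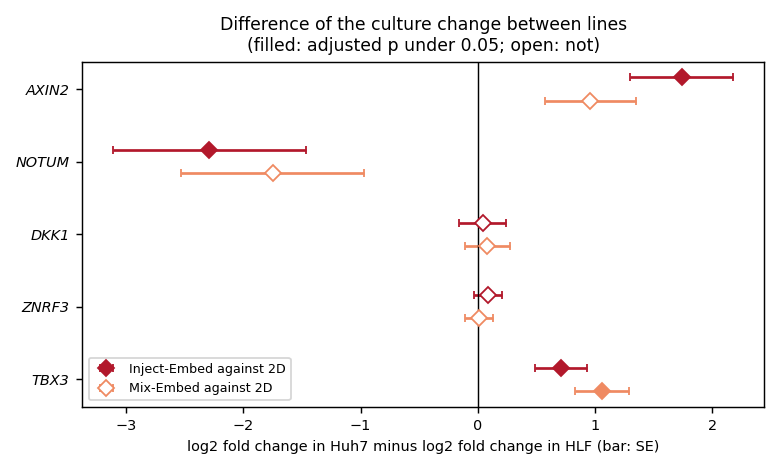
Log2 fold change over 2D in Huh7 minus that in HLF (horizontal axis, bars are SE) for the 5 members with more than 3 counts in every group, in Inject-Embed and Mix-Embed. Filled points had an adjusted p under 0.05. AXIN2 and TBX3 lie to the right of 0, NOTUM to the left, and DKK1 and ZNRF3 near 0.

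The ligands and receptors of the pathway set the 2 lines apart in other ways. Huh7 held few or no counts of the non-canonical ligand genes WNT5A and WNT5B and of the Wnt secretion carrier WLS, all 3 of which HLF expressed. WNT5A had 0 counts in every Huh7 library, and was at 8.43 ± 0.11 FPKM in HLF Inject-Embed, 7.03 ± 0.0068 FPKM in Mix-Embed and 6.27 ± 0.027 FPKM in 2D. WLS had 3 to 11 counts per library in Huh7, and was at 20.5 ± 0.13 FPKM in HLF Inject-Embed, 20.2 ± 0.11 FPKM in Mix-Embed and 13.7 ± 0.041 FPKM in 2D. In HLF 3D culture WLS and PORCN, the enzyme that puts the lipid on Wnt proteins, both rose (WLS by 0.54 ± 0.08 and 0.5 ± 0.08, PORCN by 0.88 ± 0.18 and 0.49 ± 0.18, for Inject-Embed and Mix-Embed). The Mix-Embed call of PORCN (adjusted p = 0.0418) was lost in DESeq2 (adjusted p = 0.152). It was also lost in limma on log2(FPKM + 0.1) and on log2(FPKM + 1) (adjusted p = 0.207 and 0.0937). Nor did it hold without HLF 2D replicate 2 (0.26) or without HLF Mix-Embed replicate 1 or 2 (0.42 and 0.58). The Inject-Embed call of PORCN was lost in limma on log2(FPKM + 0.1) (adjusted p = 0.0701). WNT5B fell by 0.81 ± 0.06 in HLF Inject-Embed and by 0.88 ± 0.06 in Mix-Embed (adjusted p = 5.83e-14 and 2.54e-15). In Huh7 the ligand gene WNT11 rose by 1.56 ± 0.3 in Inject-Embed and 1.88 ± 0.29 in Mix-Embed (adjusted p = 5.97e-05 and 3.3e-06), at 0.898 ± 0.016 FPKM in 2D. Of 10 ligands tested against 2D, 2 rose and 1 fell in Huh7 Inject-Embed, and 1 rose and 0 fell in Huh7 Mix-Embed. In HLF 1 rose and 3 fell in Inject-Embed, and 0 rose and 3 fell in Mix-Embed. Of all genes tested, 13.2% rose and 16.7% fell in Huh7 Inject-Embed, and 11.2% rose and 10.6% fell in Huh7 Mix-Embed. The shares were 9.09% and 8.86% in HLF Inject-Embed, and 14.4% and 14.6% in HLF Mix-Embed. Some of the 10 had few or no counts in 1 line. WNT9B rose in Huh7 Inject-Embed from 3 counts in 2D. WNT10B, which fell in HLF Mix-Embed, lost its call in DESeq2 (adjusted p = 0.162) and in both limma fits. So did WNT3, which fell in Huh7 Inject-Embed (adjusted p = 0.0823 in DESeq2, and 0.135 and 0.073 in limma). WNT5A, which rose in HLF Inject-Embed, lost its call in limma on log2(FPKM + 0.1) (adjusted p = 0.0855).

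Frizzled and LRP receptor genes mostly fell in Huh7 Inject-Embed. Of 11 receptors tested, 1 rose and 8 fell in Huh7 Inject-Embed against 2D, with a median log2 fold change of -0.35 beside -0.006 over all genes, and 3 rose and 4 fell in Huh7 Mix-Embed. In HLF 3 rose and 1 fell in each 3D culture. The 4 that fell in Huh7 Mix-Embed became 2 without Huh7 2D replicate 1 or either Huh7 Mix-Embed library, the 3 that rose there became 1 with limma on log2(FPKM + 1), and the 3 that rose in HLF Mix-Embed became 6 with library totals. FZD4 fell by 0.69 ± 0.1 in Huh7 Inject-Embed (adjusted p = 1.64e-07) and rose by 1.29 ± 0.09 and 1.6 ± 0.09 in HLF Inject-Embed and Mix-Embed (adjusted p = 4.34e-15 and 9.44e-19). LGR4, the R-spondin receptor related to LGR5, was at 31.3 ± 0.52 FPKM in Huh7 Inject-Embed, 29.8 ± 1.2 FPKM in Mix-Embed and 34.1 ± 0.059 FPKM in 2D. In HLF it stood higher, at 74.6 ± 0.14 FPKM in Inject-Embed, 92.5 ± 4.3 FPKM in Mix-Embed and 50.2 ± 0.3 FPKM in 2D. LGR4 fell by 0.16 ± 0.05 and 0.18 ± 0.05 in the 2 Huh7 3D cultures and rose by 0.53 ± 0.05 and 0.82 ± 0.05 in those of HLF. The Huh7 calls did not hold without Inject-Embed replicate 1 (-0.14) or Mix-Embed replicate 1 (-0.14), in that order of cultures. The Huh7 Inject-Embed call of LGR4 was also lost in limma on log2(FPKM + 0.1) and on log2(FPKM + 1) (adjusted p = 0.0547 and 0.0518). With only the libraries compared in the fit it did not hold either (adjusted p = 0.0802). The 4 R-spondin genes did not pass the filter on low counts. DKK3, a relative of DKK1, fell in Huh7 by 1.16 ± 0.12 in Inject-Embed and 0.6 ± 0.11 in Mix-Embed and rose in HLF by 0.53 ± 0.07 in both. Of 7 other antagonists tested, 1 rose and 2 fell in Huh7 Inject-Embed, and 1 rose and 1 fell in Huh7 Mix-Embed. In HLF 1 rose and 0 fell in Inject-Embed, and 1 rose and 1 fell in Mix-Embed. Beside these and the receptor counts, 13.2% of all genes rose and 16.7% fell in Huh7 Inject-Embed. The shares were 11.2% and 10.6% in Huh7 Mix-Embed, 9.09% and 8.86% in HLF Inject-Embed, and 14.4% and 14.6% in HLF Mix-Embed. Neither list was tested against these shares.

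Inside the cell, CTNNB1, the gene of beta-catenin itself, was at 64.4 ± 1.4 FPKM in Huh7 Inject-Embed, 67.4 ± 2.2 FPKM in Mix-Embed and 76.1 ± 4.1 FPKM in 2D. It fell by 0.27 ± 0.04 in Inject-Embed and by 0.16 ± 0.04 in Mix-Embed (adjusted p = 1.64e-06 and 0.00354), the second not without Huh7 2D replicate 1 or Huh7 Mix-Embed replicate 2 (adjusted p = 0.101 and 0.102). Neither HLF comparison passed (0.05 ± 0.04 and -0.09 ± 0.04). AXIN1, the constitutive scaffold, rose in Huh7 by 0.45 ± 0.09 and 0.58 ± 0.09 (adjusted p = 0.000157 and 3.92e-06), where its relative AXIN2 did not pass, and neither HLF value passed (-0.07 ± 0.08 and 0.03 ± 0.08). The next 2 lists stand beside shares of all genes, against which they were not tested. In Huh7, 13.2% of all genes rose and 16.7% fell in Inject-Embed, and 11.2% rose and 10.6% fell in Mix-Embed. In HLF the shares were 9.09% and 8.86%, and 14.4% and 14.6%. Of 14 genes of the destruction complex and its transducers, 0 rose and 1 fell in HLF Inject-Embed, and 2 rose and 0 fell in HLF Mix-Embed. Of the same 14, 3 rose and 5 fell in Huh7 Inject-Embed, and 4 rose and 3 fell in Huh7 Mix-Embed. In Huh7 Mix-Embed these became 1 rising and 1 falling without Huh7 2D replicate 1 or Huh7 Mix-Embed replicate 2, 2 rose without Huh7 Mix-Embed replicate 1 and in DESeq2, and 1 rose with limma on log2(FPKM + 0.1). In Huh7 Inject-Embed 3 fell without its replicate 1, and 5 rose with library totals. Of 12 nuclear partners of beta-catenin, 0 rose and 6 fell in Huh7 Inject-Embed, TCF7L2 among them (-0.36 ± 0.08, adjusted p = 0.000485), and 0 rose and 1 fell in Huh7 Mix-Embed. In HLF 0 rose and 3 fell in Inject-Embed (2 rose with library totals, and 1 fell with limma on log2(FPKM + 1)), and 2 rose and 1 fell in Mix-Embed. TCF7 passed the test in no 3D culture of either line against 2D (0.22 ± 0.14 and 0.27 ± 0.14 in Huh7, -0.02 ± 0.42 and -0.03 ± 0.42 in HLF).

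Other genes described as beta-catenin targets did not follow one pattern. MYC, the growth-promoting transcription factor, was at 59.3 ± 1.7 FPKM in Huh7 Inject-Embed, 46.7 ± 1.7 FPKM in Mix-Embed and 29.7 ± 1.9 FPKM in 2D. HLF held MYC at 30.3 ± 0.74 FPKM in Inject-Embed, 32.2 ± 1.0 FPKM in Mix-Embed and 40.0 ± 1.5 FPKM in 2D. MYC rose in Huh7 by 0.96 ± 0.06 and 0.66 ± 0.06 and fell in HLF by 0.44 ± 0.06 and 0.37 ± 0.06. The difference between the lines was 1.41 ± 0.08 for Inject-Embed and 1.04 ± 0.09 for Mix-Embed (adjusted p = 2.02e-17 and 4.27e-13). BAMBI, a decoy receptor of the TGF-beta family, rose in all 4 comparisons with 2D, by 1.17 ± 0.07 and 0.82 ± 0.07 in Huh7 and by 0.66 ± 0.08 and 0.86 ± 0.08 in HLF. EPHB2, an ephrin receptor, rose in Huh7 by 2.17 ± 0.25 and 2.08 ± 0.25 at a low level of 0.0899 ± 0.021 FPKM in 2D, and fell in HLF Mix-Embed by 0.54 ± 0.09. CCND1, cyclin D1, fell in Huh7 Inject-Embed by 0.19 ± 0.05 (adjusted p = 0.00237) and passed in no other comparison with 2D, and that call did not hold without Huh7 Inject-Embed replicate 1 (adjusted p = 0.129). Over all genes tested, 13.2% rose and 16.7% fell in Huh7 Inject-Embed, and 11.2% rose and 10.6% fell in Huh7 Mix-Embed. The shares were 9.09% and 8.86% in HLF Inject-Embed, and 14.4% and 14.6% in HLF Mix-Embed. Of 9 beta-catenin targets tested beside the members, 3 rose and 1 fell in Huh7 Inject-Embed, and 5 rose and 0 fell in Huh7 Mix-Embed. In HLF 2 of them rose and 1 fell in Inject-Embed, and 3 rose and 2 fell in Mix-Embed. In Huh7 Mix-Embed 3 rose in DESeq2, with limma on log2(FPKM + 0.1), and without Huh7 2D replicate 1 or Huh7 Mix-Embed replicate 1, and in HLF Mix-Embed 1 rose without HLF 2D replicate 1.

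**Figure D4:**
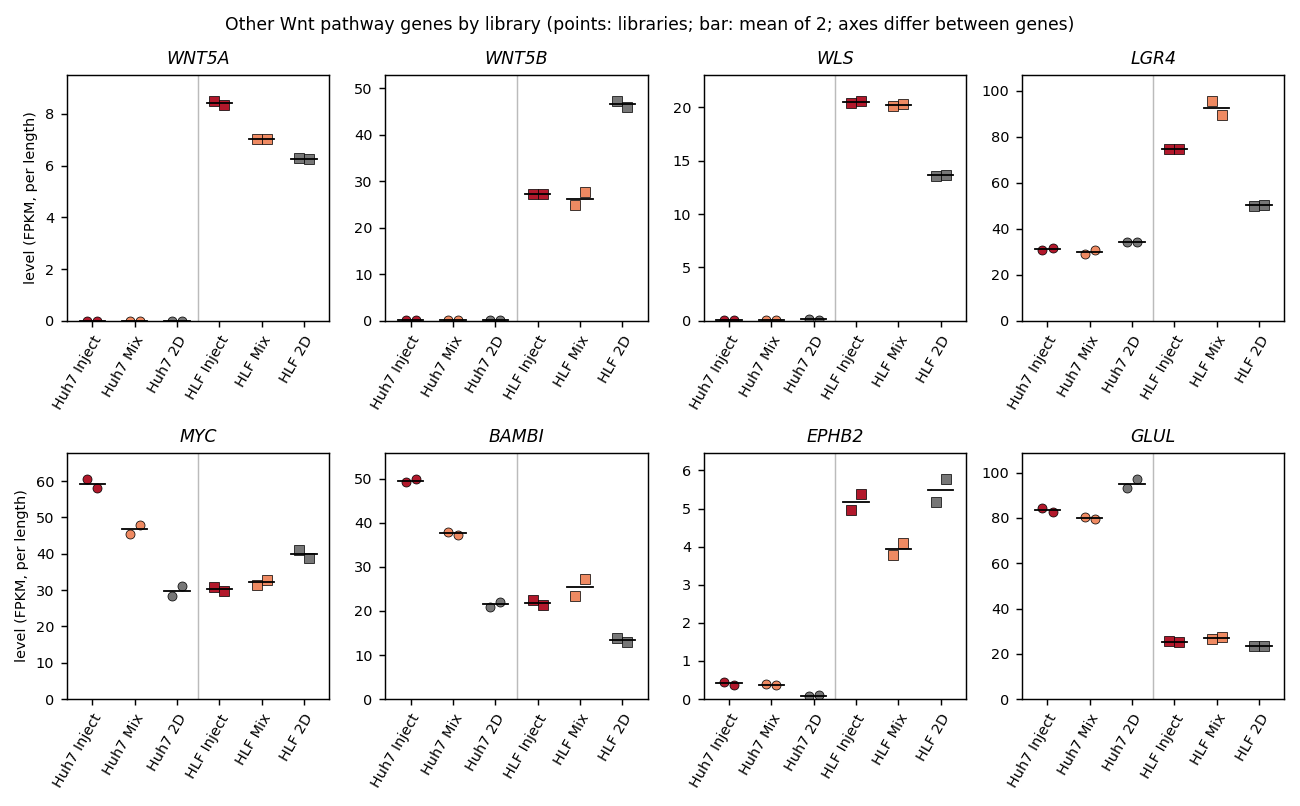
Level in FPKM (vertical axis, from 0, a scale of its own for each gene) of 8 other pathway genes in every library of the 6 groups. Points are libraries and bars are the mean of 2. WNT5A, WNT5B and WLS lie at or near 0 in Huh7, and MYC lies above 2D in Huh7 3D cultures and below it in those of HLF.

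Genes that mark hepatocytes around the central vein were also counted. GLUL, glutamine synthetase, was at 83.5 ± 1.3 FPKM in Huh7 Inject-Embed, 79.9 ± 0.49 FPKM in Mix-Embed and 95.1 ± 2.8 FPKM in 2D, and fell by 0.22 ± 0.04 and 0.24 ± 0.04 (adjusted p = 3.74e-05 and 1.66e-05). In HLF it rose in Mix-Embed by 0.15 ± 0.04 (adjusted p = 0.00918, and 0.0543 and 0.0634 without HLF 2D replicate 1 or HLF Mix-Embed replicate 2) and did not pass in Inject-Embed (0.07 ± 0.04). RHBG, an ammonium transporter, rose in Huh7 by 1.53 ± 0.29 and 1.41 ± 0.29 (adjusted p = 5.72e-05 and 0.000282). OAT, ornithine aminotransferase, rose in Huh7 Inject-Embed by 0.47 ± 0.06 and fell in HLF by 0.24 ± 0.06 and 0.56 ± 0.06, the first not without HLF 2D replicate 2 or HLF Inject-Embed replicate 1 (adjusted p = 0.0595 and 0.0642). Among all genes tested, 13.2% rose and 16.7% fell in Huh7 Inject-Embed, and 11.2% rose and 10.6% fell in Huh7 Mix-Embed. The shares were 9.09% and 8.86% in HLF Inject-Embed, and 14.4% and 14.6% in HLF Mix-Embed. Of 5 pericentral genes tested, 2 rose and 1 fell in Huh7 Inject-Embed, and 1 rose and 1 fell in Huh7 Mix-Embed. In HLF 1 of them rose and 1 fell in Inject-Embed, and 3 rose and 1 fell in Mix-Embed. The 3 became 0 without HLF 2D replicate 1 and 0 without HLF Mix-Embed replicate 2.

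The gene pattern most like that of AXIN2 was looked for among 11029 protein-coding genes, as Pearson's r of log2(CPM + 1) over the 12 libraries after the mean of each line was subtracted. This is a description over libraries that share their groups, with no test. EPB41L4B had the highest r, 0.934, followed by RAPGEF1 and MATN2 (0.932 each) and PLAGL2 and SERP1 (0.902 each). MATN2, a matrilin of the extracellular matrix, was at 14.4 and 13.9 CPM in Huh7 Inject-Embed, 11.8 and 9.57 CPM in Mix-Embed and 8.4 and 7.27 CPM in 2D. In HLF it was at 31.3 and 30.0 CPM in Inject-Embed, 38.3 and 39.5 CPM in Mix-Embed and 76.3 and 70.4 CPM in 2D. Its cultures lay in opposite order in the 2 lines. MATN2 was picked for its likeness to AXIN2, so an order like that of AXIN2 comes with the choice and is no separate result. By the same measure the r of the other members with AXIN2 ran from -0.47 for NOTUM to 0.371 for DKK1. SP5 was at 0.226, TBX3 at 0.233, LGR5 at 0.268 and NKD1 at 0.368. The 11029 genes had a mean of at least 1 CPM in each line, and the members, AXIN2 included, were not held to this. AXIN2 itself was low in HLF, at 0.478 ± 0.034 CPM in Inject-Embed, 0.796 ± 0.034 CPM in Mix-Embed and 1.37 ± 0.34 CPM in 2D. Its HLF pattern, and with it each r, rests in part on 7 to 26 counts per library. LGR5, SP5, RNF43, NKD1 and LEF1 lay near the floor in HLF, so they could hardly follow AXIN2 there. The genes named above were picked for their high r, so their r and those of the members are not a like comparison.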

How the data were processed

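Poly-A RNA of 12 libraries, 2 for each of 6 groups, was sequenced as paired reads, and the labels call the replicates biological. Raw counts for each gene, and FPKM (counts scaled by gene length and by the library total), are what the authors deposited. The counts, gene lengths and library totals gave back the deposited FPKM for 167453 of 167453 values of at least 20 counts within a relative 1e-06. Values on fewer counts were not checked. The tools named, per the submitters' processing notes, are featureCounts, STAR 2.7.9a, Trimmomatic and FastQC, with the hg38 build; the sources used here do not give their settings, strand option or gene annotation. Depth was 12325877 to 16041906 counts per library.

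Counts were fitted with edgeR 4.0.16 (R 4.3.3): TMM scaling, filterByExpr with a minimum count of 10 (19342 genes kept), 1 mean per group over all 12 libraries, and the quasi-likelihood test with Benjamini-Hochberg adjustment at 0.05. Each SE was taken as the absolute log2 fold change over the root of its F statistic. Differences between lines were contrasts of the same model. Genes with at most 3 counts over a group are given as count ratios, with exact 95% intervals or, at 0 counts, against a floor of 3 counts. Alternatives were DESeq2 1.42.0, limma 3.58.1 on log2(FPKM + 1) and log2(FPKM + 0.1), RLE size factors, library totals, 2 other filters, the libraries compared alone, a replicate block and each library left out. The fitting was tested on simulated data. Levels and fold changes rest on different scalings, since FPKM uses library totals and the fits use TMM.

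The 10 members and all gene lists were chosen with earlier results of these data known. All members are described. Of other genes, the 3 of each list with the smallest adjusted p among those called were eligible to be named, together with MYC, CCND1, GLUL, CTNNB1, AXIN1, TCF7 and TCF7L2.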

Additional observations from a re-analysis of the deposited data

Results flagged for a closer look

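For 3 target genes the response to Inject-Embed, Mix-Embed or both differed between the 2 lines by a test of the difference itself. That difference is the log2 fold change in Huh7 minus that in HLF in edgeR. For Inject-Embed against 2D, AXIN2 had a difference of 1.74 ± 0.44 (adjusted p = 0.00195), from 0.24 in Huh7 and -1.51 in HLF, where the HLF libraries held 7 to 26 counts. TBX3 had a difference of 0.71 ± 0.22 (adjusted p = 0.0142), from 0.69 in Huh7 and -0.02 in HLF. NOTUM had a difference of -2.29 ± 0.82 (adjusted p = 0.0336), from -1.21 in Huh7 and 1.08 in HLF, on 3 to 51 counts per library. Its call was lost in DESeq2 (adjusted p = 0.0583), in limma on log2(FPKM + 1) (adjusted p = 0.0648) and with 5 of the 8 libraries left out in turn (adjusted p = 0.0588 to 0.214), and that of TBX3 was lost with 2 of them left out (adjusted p = 0.203 and 0.124). For Mix-Embed against 2D, TBX3 had a difference of 1.06 ± 0.23 (adjusted p = 0.000615), from 0.67 in Huh7 and -0.38 in HLF. AXIN2 and NOTUM did not pass there (0.96 ± 0.39 and -1.75 ± 0.78, adjusted p = 0.0815 and 0.113).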

How the results depend on the processing

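The count of members called, over all 9 tested members, moved by over 1.5 times in 5 cases. For Huh7 Inject-Embed against Mix-Embed it was 1 with limma on log2(FPKM + 0.1) against 3. For HLF Inject-Embed against 2D it was 1 with limma on log2(FPKM + 1) against 2. For HLF Mix-Embed against 2D it was 0 with library totals against 1. With limma on log2(FPKM + 1) the line differences gave 5 against 3 for Inject-Embed and 4 against 1 for Mix-Embed. These line difference counts take in LGR5, SP5, RNF43 and NKD1, which have no usable HLF response. Among the other 5 members, NOTUM lost its Inject-Embed call in that setting (adjusted p = 0.0648) and none gained a call. With each library left out in turn the counts were 1 to 1 for Huh7 Inject-Embed against Mix-Embed, 1 to 2 for HLF Inject-Embed against 2D, 0 to 1 for HLF Mix-Embed against 2D, 1 to 3 for the line difference in Inject-Embed and 1 to 1 for that in Mix-Embed; the causes were not tested.

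Values of members that changed sign were all uncalled. With library totals, TBX3 in HLF Inject-Embed against 2D was 0.02, ZNRF3 in the Mix-Embed line difference -0.06, and DKK1 in the line difference between the 3D cultures 0.03. With limma on log2(FPKM + 0.1) these were 0.02, -0.06 and 0.02, and DKK1 in the Mix-Embed line difference was -0.01. With limma on log2(FPKM + 1), TBX3 in HLF Inject-Embed was 0.01, ZNRF3 in the Mix-Embed line difference -0.05, and DKK1 -0.1 in the Inject-Embed and -0.06 in the Mix-Embed line difference. With libraries left out, NOTUM in Huh7 Mix-Embed against 2D ran from -0.84 to 0.26. In Huh7 Inject-Embed against Mix-Embed, NKD1 ran from -0.03 to 0.34, TBX3 from -0.01 to 0.06 and RNF43 from -0.16 to 0.23. In HLF Inject-Embed against 2D, TBX3 ran from -0.24 to 0.21 and ZNRF3 from -0.05 to 0.22, and ZNRF3 in HLF Mix-Embed ran from -0.0003 to 0.22. In HLF Inject-Embed against Mix-Embed, NOTUM ran from -0.69 to 0.03 and ZNRF3 from -0.16 to 0.1. The line differences ran from -0.002 to 0.26 (ZNRF3) and -0.05 to 0.16 (DKK1) for Inject-Embed, from -0.12 to 0.11 and -0.06 to 0.19 for Mix-Embed, and from -0.11 to 0.13 (DKK1) between the 3D cultures.

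Of 642 member values under settings that kept all libraries, 617 kept direction and call, and of 352 with a library left out, 300 did. The difference of replicate 1 from replicate 2 had an r of -0.188 to 0.175 over 15 pairs of groups, 2 of them above 0.1. With 1 such difference per group, this cannot tell whether the labels' replicate numbers pair the samples. With a replicate block in edgeR, NOTUM in Huh7 Inject-Embed against 2D was -1.17 (adjusted p = 0.0542). Over all genes, 1600 calls between the HLF 3D cultures became 670 and 982 with limma, and 766 to 1046 with a library left out; 3471 calls in HLF Inject-Embed against 2D became 2247 to 2294, and 4203 in Huh7 Mix-Embed against 2D became 2696 without Huh7 Mix-Embed replicate 2. Of the 72 list counts against 2D, 40 moved by over 1.5 times under at least 1 setting; of those 127 moves, 101 were by 1 gene and none by more than 3.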
